A study of Mus musculus with 8 samples.

Results

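The genes of the aryl hydrocarbon receptor pathway were followed in neonatal cardiomyocytes (NCMs) of mice exposed before birth to diesel exhaust (DE) or filtered air (FA). They were the 8 rows, of 27179 in the table of raw counts, whose Entrez identifiers map to Ahr, Arnt, Arnt2, Ahrr, Tiparp, Cyp1a1, Cyp1a2 and Cyp1b1. All mice were C57Bl/6J, and the labels name no altered allele. Dams breathed DE or FA from embryonic day 0.5 until late gestation and were then housed elsewhere until birth, so no pup was exposed on the day its heart was taken. Each library came from the NCMs of 1 male heart on postnatal day 0, with 4 FA libraries (replicates 2, 3, 4 and 6) and 4 DE libraries (replicates 1, 3, 5 and 7). The labels do not give the litters, so p-values measure the spread between hearts, some of which may share a dam. The methods give fewer hearts per group than the labels, and all 8 libraries were used. The cells were freed by enzymes from hearts trimmed of atria and vessels. They were then left on plastic for a short time, in warm medium with serum and the drug Ara-C, so that fibroblasts would attach and stay behind.

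The aryl hydrocarbon receptor, encoded by Ahr, is a transcription factor that waits in the cytosol in a complex with the chaperone Hsp90. Polycyclic aromatic hydrocarbons of the kind carried by diesel particles bind it, after which it enters the nucleus, pairs with Arnt and binds DNA at elements with the core GCGTG. Its classic targets are the cytochromes P450 Cyp1a1, Cyp1a2 and Cyp1b1, which oxidise those same hydrocarbons, and 2 genes that restrain the receptor, Ahrr and Tiparp. In the heart and vessels, Cyp1a1 is best known as a gene that endothelial cells induce when a ligand is present.

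The starts of the target genes are shown because the receptor acts on them through such elements. Each line gives the 250 bases before the RefSeq start of the gene (GRCm38.p6, the assembly also called mm10), read 5′ to 3′ on the strand of the gene, with GCGTG, its reverse complement CACGC and the TATA box letters TATAAA in capitals. The windows are chr9:57697363-57697612 on the plus strand for Cyp1a1, chr9:57683656-57683905 on the minus strand for Cyp1a2, chr17:79715062-79715311 on the minus strand for Cyp1b1, chr13:74292332-74292581 on the minus strand for Ahrr and chr3:65528197-65528446 on the plus strand for Tiparp.
Cyp1a1: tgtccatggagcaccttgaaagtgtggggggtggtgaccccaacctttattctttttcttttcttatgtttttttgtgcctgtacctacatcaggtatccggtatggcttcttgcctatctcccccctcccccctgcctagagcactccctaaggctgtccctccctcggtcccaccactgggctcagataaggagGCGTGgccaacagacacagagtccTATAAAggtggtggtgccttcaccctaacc
Cyp1a2: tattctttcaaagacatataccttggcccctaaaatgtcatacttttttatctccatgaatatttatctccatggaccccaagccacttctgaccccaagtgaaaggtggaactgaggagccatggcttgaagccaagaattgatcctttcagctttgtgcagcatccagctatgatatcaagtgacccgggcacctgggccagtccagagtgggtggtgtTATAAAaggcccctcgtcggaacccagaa
Cyp1b1: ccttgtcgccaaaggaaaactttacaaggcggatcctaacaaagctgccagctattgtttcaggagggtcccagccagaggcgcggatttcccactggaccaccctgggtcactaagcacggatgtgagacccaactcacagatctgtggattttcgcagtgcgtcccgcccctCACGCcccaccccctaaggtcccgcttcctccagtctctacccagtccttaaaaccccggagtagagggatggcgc
Ahrr: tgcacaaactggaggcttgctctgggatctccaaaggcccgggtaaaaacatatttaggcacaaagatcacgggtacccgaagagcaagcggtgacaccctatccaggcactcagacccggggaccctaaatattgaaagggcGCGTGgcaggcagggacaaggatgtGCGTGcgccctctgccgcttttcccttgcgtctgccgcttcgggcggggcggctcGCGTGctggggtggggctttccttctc
Tiparp: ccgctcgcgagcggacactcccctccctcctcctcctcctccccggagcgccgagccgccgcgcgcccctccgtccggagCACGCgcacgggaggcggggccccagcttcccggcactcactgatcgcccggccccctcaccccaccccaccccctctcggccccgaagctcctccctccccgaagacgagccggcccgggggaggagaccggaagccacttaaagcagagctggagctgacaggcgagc
The Cyp1a1 window held GCGTG on the strand of the gene 54 to 50 bases before the start, with TATAAA 30 to 25 bases before it. This window lies inside the annotated span of Cyp1a1 given later, which begins before it. The Ahrr window held GCGTG at 3 places, 107 to 103, 82 to 78 and 27 to 23 bases before the start. Tiparp and Cyp1b1 each held it at 1 place on the opposite strand, 170 to 166 and 76 to 72 bases before the start. Cyp1a2 had TATAAA 29 to 24 bases before its start and no GCGTG in this window. Of the windows for the 2 partners of the receptor, that of Arnt held GCGTG at 1 place and that of Arnt2 at none, while no window for Ahr was matched. On either strand, GCGTG occurs in 28.2% of 32851 windows of this length and TATAAA in 12.4%, and 2.58% hold GCGTG at 3 or more places. Such a match is a description of the letters, and elements outside these 250 bases were not looked at. GCGTG is also the core to which hypoxia-inducible factors bind, and ACGTG, their other core, was in none of the members' windows and in 16.6% of all windows.

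The libraries held 17943024 to 39839737 counts. Levels are given as CPM, counts set relative to library size after scaling by TMM factors, which correct for differences in composition. Exposure was tested by the quasi-likelihood method of edgeR over the 14966 genes that passed a filter on low counts. A gene was called at a Benjamini-Hochberg adjusted p of 0.05 or less over all tested genes and a difference of at least 25%. With these rules 5.8% of all tested genes were called, 2.22% lower and 3.58% higher in DE. Cardiomyocyte markers, all 11 of them detected, summed to 76750 to 81940 CPM in FA and 64840 to 75370 in DE, without overlap, and 2 of them were called lower and 1 higher. Much of this sum was Myh6, which averaged 23300 CPM in FA and 14620 in DE, while Myh7 averaged 10020 and 14490. The median log2 fold change of the 11 was −0.16, with 9 below and 2 above 0, and Tnnt2 was at −0.06. Over the 8 libraries the marker sum was 2008 to 6177 CPM for fibroblasts, 979.5 to 1555 for endothelial cells, 825.7 to 1817 for smooth muscle and pericytes, 429.1 to 1123 for erythroid cells, 92.21 to 130.9 for mesothelial cells, 12.17 to 26.05 for leukocytes, 5.33 to 15.79 for Schwann and neural cells and 2.539 to 4.389 for hepatocytes. The fibroblast sum was 3655 to 6177 CPM in DE and 2008 to 3461 in FA, also without overlap. The part of either sum in the values that follow was not tested beyond the marker ratios given later. DE replicates 3 and 5 bear a prefix of 12 in their names and the other 6 libraries one of 11, and the labels do not say what it stands for.

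Of the members, Cyp1a1 fell by 2.50 on the log2 scale in DE, and it was the only gene called by edgeR among the 7 that passed the filter, against the 5.8% of all tested genes. Cyp1a2 did not pass it, with 2 counts in all 8 libraries together. The other 6 lay between a log2 fold change of −0.54 for Ahrr and 0.38 for Ahr, and none was called by edgeR. DESeq2 called Ahrr as well (adjusted p = 0.0468). FA and DE did not overlap for 2 members, Cyp1a1 and Arnt, whereas 14.7% of all tested genes had no overlap. In bulk RNA, fewer cells of a type and less RNA per cell cannot be told apart.

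**Figure D1:**
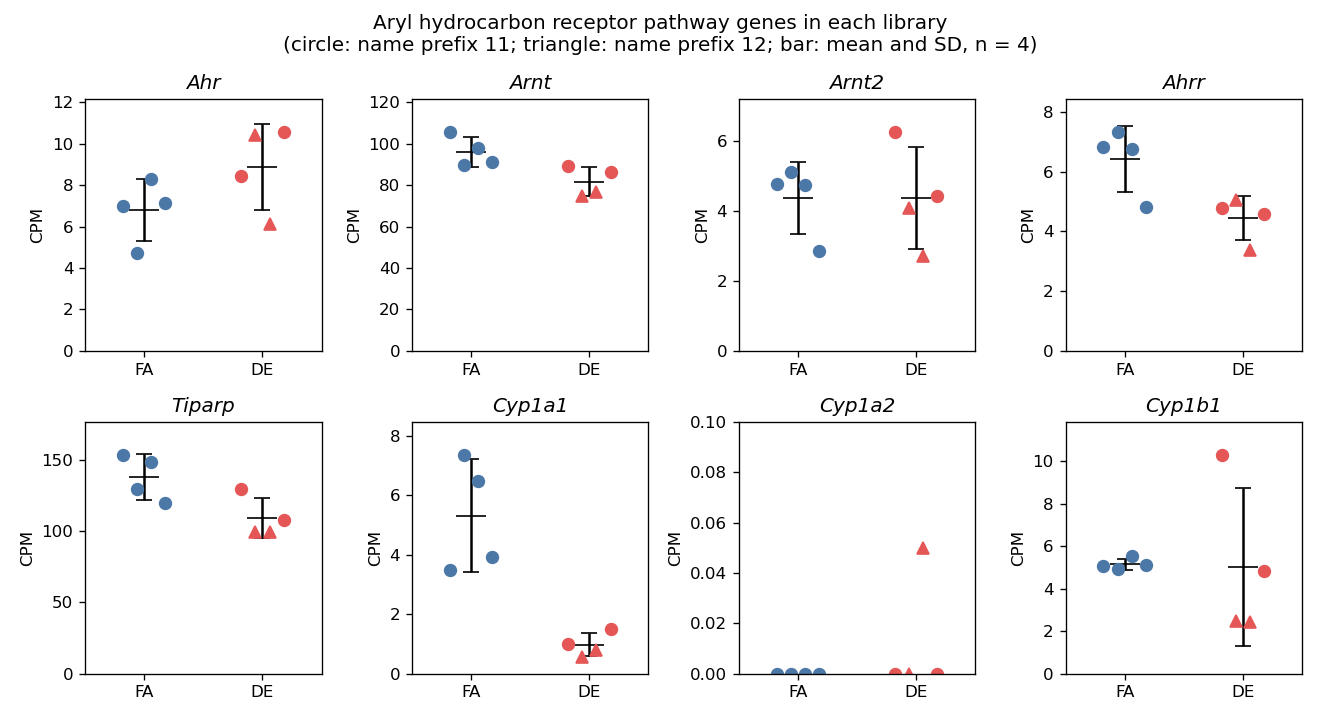
Normalized CPM (vertical axes, linear, each from 0) of the 8 genes in the 4 FA and 4 DE libraries, with 1 point per library (triangles for name prefix 12) and, for the genes tested, a bar for the group mean and SD. The DE points of Cyp1a1 reach 1.492 CPM at most and the FA points start at 3.476, DE replicate 1 stands alone for Cyp1b1, and Cyp1a2 has counts in 1 library only.

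The receptor itself was measured at a low level. Ahr (Entrez 11622, chr12:35497979-35534989, minus strand) had 7.005, 4.733, 8.296 and 7.131 CPM in FA replicates 2, 3, 4 and 6, and 8.412, 10.41, 6.135 and 10.55 CPM in DE replicates 1, 3, 5 and 7. The groups overlapped, since DE replicate 5 lay below 3 of the FA libraries. The mean was 6.79 ± 1.49 CPM (SD, n = 4) in FA and 8.88 ± 2.07 in DE, a log2 fold change of 0.38 (SE 0.206, adjusted p = 0.267 by edgeR). Its 95% interval, −0.07 to 0.83, holds no change as well as a rise of the receptor mRNA.

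Arnt, the partner with which the receptor binds DNA, was the second most abundant of the 8 genes. It (Entrez 11863, chr3:95434367-95497240, plus strand) had 105.5, 89.44, 97.8 and 90.93 CPM in FA replicates 2, 3, 4 and 6, and 88.96, 74.56, 76.74 and 86.08 in DE replicates 1, 3, 5 and 7. Every DE library lay below every FA library, although the highest DE value (88.96) and the lowest FA value (89.44) nearly met. The log2 fold change was −0.23 (SE 0.0993, 95% interval −0.45 to −0.02), with an unadjusted p of 0.0370 and an adjusted p of 0.167 by edgeR, so Arnt was not called. It was −0.13 with the name prefix as a term (adjusted p = 0.577 by edgeR) and −0.14 with prefix 11 alone (adjusted p = 0.626). Of all tested genes, 25.6% had an unadjusted p below 0.05. Arnt2, a close relative of Arnt best known from neurons (Entrez 11864, chr7:84246274-84411741, minus strand), averaged 4.38 ± 1.03 CPM in FA and 4.38 ± 1.46 in DE (SD, n = 4). It ranged from 2.852 to 5.132 in FA and from 2.718 to 6.263 in DE, and its log2 fold change of −0.01 had an interval of −0.57 to 0.55 and an adjusted p of 0.989 by edgeR. Exons of Ahr and Arnt2 lie opposite those of the non-coding genes Gm48236 and Gm30873, and how strand was handled in counting is not given in the sources used here, so their counts may include reads of the opposite gene.

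The 2 genes that restrain the receptor were both lower on average in DE, and neither was called by edgeR. Ahrr, the repressor that competes with the receptor for Arnt (Entrez 11624, chr13:74211118-74292331, minus strand), had 6.818, 7.324, 6.772 and 4.819 CPM in FA replicates 2, 3, 4 and 6, and 4.781, 5.049, 3.392 and 4.584 in DE replicates 1, 3, 5 and 7. The groups met at FA replicate 6, which lay just below DE replicate 3. The log2 fold change was −0.54 (SE 0.176, 95% interval −0.92 to −0.15, adjusted p = 0.0928 by edgeR). DESeq2 gave −0.54 with an adjusted p of 0.0468 and called it, where it called 10.9% of the 14997 genes to which it gave an adjusted p.

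Tiparp, an ADP-ribosyltransferase that modifies the receptor and is itself induced by it, was the most abundant member. It (Entrez 99929, chr3:65528447-65555518, plus strand) had 153.6, 129.8, 148.5 and 119.6 CPM in FA replicates 2, 3, 4 and 6, and 129.4, 99.03, 99.46 and 108.1 in DE replicates 1, 3, 5 and 7. DE replicate 1 lay within the FA range and the other DE libraries below it. Exons of Tiparp lie opposite those of 4931440P22Rik, so the same limit of strand holds for its counts. The log2 fold change was −0.34 (SE 0.120, 95% interval −0.60 to −0.08, adjusted p = 0.110 by edgeR). It was called without DE replicate 1 (−0.43, adjusted p = 0.0475), and with the libraries of prefix 11 alone it was −0.22 (adjusted p = 0.489).

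Cyp1a1, the P450 most often read as a sign of receptor activity, was the only member called by edgeR. It (Entrez 13076, chr9:57687928-57703824, plus strand) had 3.476, 7.374, 6.49 and 3.934 CPM in FA replicates 2, 3, 4 and 6, and 0.9985, 0.5737, 0.7981 and 1.492 in DE replicates 1, 3, 5 and 7. The lowest FA library was thus above the highest DE library. The mean was 5.32 ± 1.91 CPM in FA and 0.966 ± 0.392 in DE (SD, n = 4), and the fit gave a log2 fold change of −2.50, a fold of 5.67 (SE 0.323, 95% interval −3.21 to −1.80, adjusted p = 0.00237 by edgeR). These levels rest on 80 to 148 counts per FA library and 20 to 33 counts per DE library. The library with 20 counts has an exact Poisson interval of 12.2 to 30.9 and that with 80 has 63.4 to 99.6, intervals that cover counting error only.

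The fall of Cyp1a1 was called under each of the 19 alternatives that had been listed for it, with log2 fold changes from −2.74 to −2.12. Leaving out each library in turn gave −2.74 to −2.30 with adjusted p between 0.00282 and 0.00926. With the libraries of prefix 11 alone (4 FA and 2 DE) it was −2.12 with an adjusted p of 0.0184, where 1.75% of genes were called. Within DE, Cyp1a1 averaged 0.686 CPM under prefix 12 and 1.245 CPM under prefix 11, a log2 difference of −0.80 (adjusted p = 0.301 by edgeR).

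**Figure D2:**
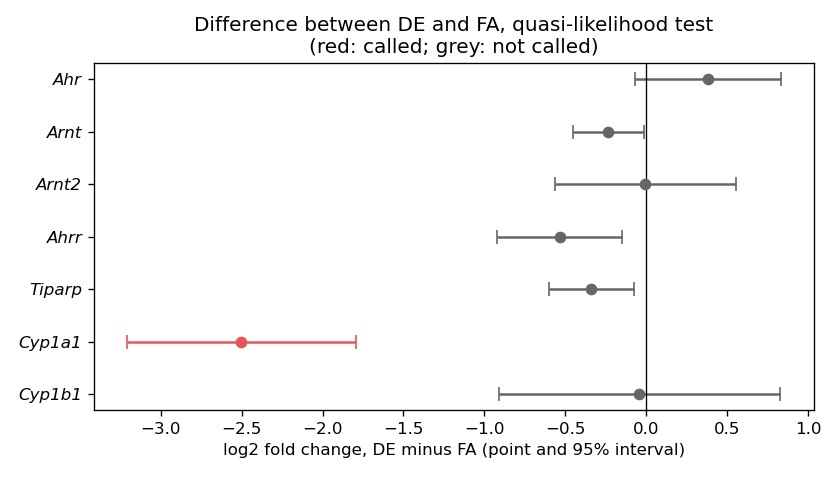
Log2 fold change of DE against FA (horizontal axis) for the 7 tested genes, with a point for the estimate and a line for its 95% interval from the quasi-likelihood fit. Cyp1a1 at −2.50 is the only called gene, and the intervals of Ahr, Arnt2 and Cyp1b1 cross 0.

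Cyp1a2, which is mainly a liver enzyme, lies next to Cyp1a1 in the opposite orientation (Entrez 13077, chr9:57676937-57683655, minus strand). It had 0 counts in 7 libraries and 2 counts in DE replicate 5, or 0.0499 CPM there. A count of 0 allows up to 3 counts, which is 0.0802 to 0.169 CPM in the 7 libraries at 0, so a difference was not detectable at this depth.

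Cyp1b1, the P450 of this family usually found outside the liver, varied more between DE libraries than between FA libraries. It (Entrez 13078, chr17:79706940-79715061, minus strand) had 5.053, 4.933, 5.53 and 5.114 CPM in FA replicates 2, 3, 4 and 6, a narrow range. DE replicates 1, 3, 5 and 7 had 10.32, 2.467, 2.444 and 4.85 CPM, so that DE replicate 1 lay above all FA libraries and the other DE libraries below them. The group means were 5.16 ± 0.260 and 5.02 ± 3.71 CPM (SD, n = 4), with a log2 fold change of −0.04 (SE 0.395, 95% interval −0.91 to 0.82, adjusted p = 0.960 by edgeR). Without DE replicate 1 it was −0.71 (adjusted p = 0.0863), and with prefix 11 alone it was 0.58 (adjusted p = 0.264). Within DE, the libraries of prefix 12 averaged 2.46 CPM and those of prefix 11 averaged 7.58 CPM. That log2 difference of −1.65 was called (adjusted p = 0.0339 by edgeR), where 2.06% of tested genes were called, and it compares 2 libraries with 2.

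Per length of the gene's exons (FPKM, from the union of exons in GENCODE vM21), the order of the 8 genes differed between the groups mainly in the place of Cyp1a1. In FA the order was Tiparp (31.6 ± 3.64 FPKM, SD, n = 4), Arnt (12.0 ± 0.919), Cyp1a1 (1.91 ± 0.684), Ahr (1.10 ± 0.242), Cyp1b1 (0.883 ± 0.0445), Ahrr (0.681 ± 0.117), Arnt2 (0.569 ± 0.134) and Cyp1a2 (0 FPKM). The ranges over libraries of Cyp1a1 and Ahr overlapped, as did those of Ahr and Cyp1b1 and those of Ahrr and Arnt2, so these neighbours in the order were not separated. In DE, Tiparp (25.01 ± 3.26 FPKM) and Arnt (10.2 ± 0.876) were again first and Cyp1a1 (0.347 ± 0.141) was seventh, below Ahr (1.44 ± 0.337), Cyp1b1 (0.860 ± 0.635), Arnt2 (0.569 ± 0.190) and Ahrr (0.472 ± 0.0775). Each of these 5 lower genes overlapped with its neighbour.

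**Figure D3:**
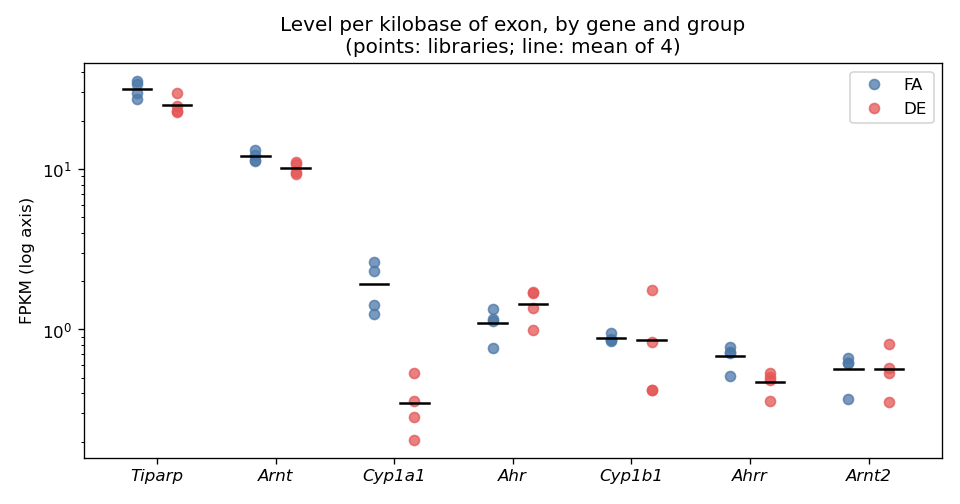
Level per exon length (FPKM, vertical log axis) of 7 genes in each library, with FA and DE side by side and a line at each group mean. Tiparp and Arnt lie above 9 FPKM in every library, and Cyp1a1 moves from the third place in FA to the seventh in DE, while Cyp1a2, at 0 in 7 libraries, is left out.

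Ratios between members, chosen after their values were seen and given with no test, followed from these levels. The ratio of Ahrr to Ahr per length ranged from 0.441 to 1.01 in FA libraries and from 0.284 to 0.371 in DE libraries. The ratio of Cyp1a1 to Cyp1b1 was 1.44 to 3.13 with FA and 0.203 to 0.684 with DE. The ratio of Arnt to Ahr overlapped between the groups, at 9.07 to 14.5 with FA and 5.51 to 9.63 with DE, as did that of Arnt to Arnt2, at 16.7 to 30.6 and 13.6 to 27.1. Per length, every FA library therefore held more Cyp1a1 than Cyp1b1 RNA, and every DE library less. Across the 8 libraries, the log2 CPM of Arnt and Tiparp had a Pearson r of 0.951, Ahrr and Tiparp 0.787, and Ahrr and Cyp1a1 0.771. Ahr and Cyp1a1 had −0.523, and Ahr and Cyp1b1 0.00883. These values include the difference between FA and DE and are descriptions over libraries that share 2 groups.

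Since Cyp1a1 and Ahr are also expressed outside cardiomyocytes, the members were set against the marker sums of other cells, an alternative chosen after seeing the data. Relative to the endothelial sum, Cyp1a1 differed by −2.66 on the log2 scale, relative to fibroblasts by −3.21, to smooth muscle and pericytes by −2.00 and to leukocytes by −2.91. In each case FA and DE did not overlap, and each two-sided exact permutation p was 0.0286, the smallest that 4 against 4 libraries allow. Of the 8 endothelial markers 0 were called (3 with an unadjusted p below 0.05 by edgeR, 2 called by DESeq2), and their median log2 fold change was 0.17. Over all genes, 25.6% had such a p and DESeq2 called 10.9%. For Ahr the sign depended on the marker list, at 0.20 relative to endothelial, −0.35 to fibroblast, 0.86 to smooth muscle and −0.05 to leukocyte markers, with exact p from 0.0571 upwards. Ahrr was −0.71 relative to endothelial markers (exact p = 0.0571), −1.26 to fibroblast markers (exact p = 0.0286) −0.97 to leukocyte markers (exact p = 0.0286) and −0.06 to smooth muscle markers (exact p = 0.800). FA and DE also did not overlap for Arnt relative to fibroblast markers (−0.97) and for Tiparp relative to fibroblast (−1.07) and leukocyte markers (−0.78), each with an exact p of 0.0286. The fibroblast sum itself did not overlap between FA (2008 to 3461 CPM) and DE (3655 to 6177 CPM). A ratio to it can therefore part the groups without a change in the member. The exact p-values were not adjusted for the number of ratios. Relative to endothelial markers Arnt (−0.41) and Tiparp (−0.52) overlapped between the groups, each with an exact p of 0.0857, and relative to smooth muscle markers their sign turned, to 0.24 (exact p = 0.314) and 0.13 (exact p = 0.686). Most of the smooth muscle sum was Acta2, at 1151 CPM of a sum of 1378 in FA and 745.9 of 989.4 in DE, whereas 5 of the 8 markers were above 0 on the log2 scale, with a median of 0.11. The part of other cells in these values was not tested further.

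The genes around Cyp1a1 on chromosome 9 were examined next. Of the 6 tested genes within 100 kb of it 0 were called by edgeR, where 5.8% of all tested genes were. The log2 fold changes of the 6 ran from −0.53 to −0.01. Edc3, a decapping factor 4716 bases away, was at −0.53 (adjusted p = 0.0619), Arid3b at −0.39 (adjusted p = 0.112), Clk3 at −0.15, Ulk3 at −0.08, Scamp2 at −0.04 and Csk at −0.01. Cyp1a2, on the other side, was too low to be tested.

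**Figure D4:**
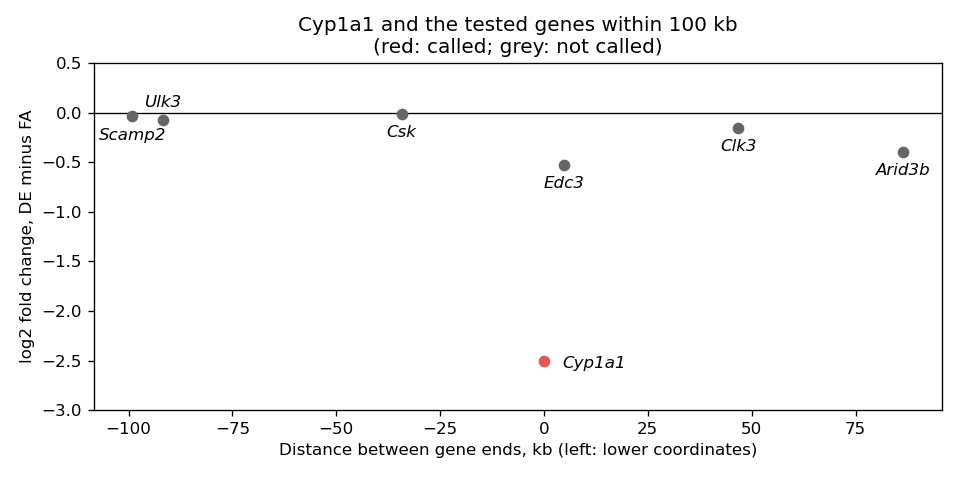
Log2 fold change of DE against FA (vertical axis) for Cyp1a1 and the 6 tested genes within 100 kb, placed by the distance in kb between gene ends (horizontal axis). Cyp1a1 is at −2.50, and its neighbours lie between −0.53 and −0.01.

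Other genes of the pathway were described in 5 lists. Of their 69 genes 51 were tested, and 4 of these (7.84%) were called, 2 lower and 2 higher, beside 5.8% of all tested genes. The median log2 fold change over the 51 was 0.03, and over all tested genes it was 0.0037.

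The 18 chaperones and coregulators of the receptor were all tested and 0 were called by edgeR, DESeq2, the likelihood ratio test or limma-voom. Of the 18, 3 had an unadjusted p below 0.05 by edgeR, as did 25.6% of all tested genes. The median of the 18 was −0.13, with 14 below and 4 above 0. The smallest p belonged to Relb, an NF-kB subunit that can pair with the receptor, at 19.0 CPM in FA and 24.6 in DE (log2 fold change 0.37, adjusted p = 0.0881). Hsp90ab1, an Hsp90 isoform, was at 0.03 (adjusted p = 0.880).

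Of 19 further genes reported as receptor targets, 11 were tested and 0 were called by edgeR, with a median of 0.16. An unadjusted p below 0.05 was reached by 1 of them, and by 25.6% of all tested genes. Nqo1, a quinone reductase that Nrf2 also induces, had 9.75 CPM in FA and 10.8 in DE (log2 fold change 0.15, adjusted p = 0.454). Nedd9, a scaffold protein of adhesion signalling, had the smallest p, at 50.4 CPM in FA and 64.8 in DE (0.36, adjusted p = 0.115). The liver-type targets Gsta1, Gsta2, Ugt1a6a and Ugt1a6b averaged at most 0.0833 CPM in either group and were not tested.

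Among 12 other genes of the bHLH-PAS family, to which the receptor and Arnt belong, 10 were tested and 1 was called. That is 10%, beside 5.8% of all tested genes. Clock, a transcription factor of the circadian clock, fell by 0.78 on the log2 scale (SE 0.204, adjusted p = 0.0476 by edgeR). It had 164.6, 105.8, 157.8 and 127.3 CPM in FA replicates 2, 3, 4 and 6, and 94.41, 59.12, 63.4 and 107.7 in DE replicates 1, 3, 5 and 7. DE replicate 7 lay above FA replicate 3, so the groups overlapped. Clock was called in 9 of 19 alternatives. The call was lost with relative log expression factors (adjusted p = 0.0501), library totals (0.0568), the prefix as a term (0.170) and the 25% difference built into the test (0.228), without any single library of FA replicates 2, 4 and 6 or DE replicates 3 and 5, with adjusted p up to 0.144, and with prefix 11 alone (−0.46, adjusted p = 0.216). Of the hypoxia factors, which also pair with Arnt, Hif1a was at −0.22 (adjusted p = 0.297), Epas1 at 0.34 (adjusted p = 0.112) and Hif3a at 0.66 (adjusted p = 0.0693). DESeq2 and the likelihood ratio test each called 2 genes of this list, where over all genes they called 10.9% and 10.7%.

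Of 12 genes whose products work with P450s or conjugate their products, 11 were tested and 3 were called. These are 27.3% of the 11, beside 5.8% of all tested genes. Cyb5a, which passes electrons to P450s, rose from 27.9 ± 4.03 CPM in FA to 41.6 ± 3.64 in DE (SD, n = 4; log2 fold change 0.58, SE 0.120, adjusted p = 0.0222 by edgeR), with FA from 23.58 to 33.05 and DE from 37.4 to 45.96. Ephx1, the epoxide hydrolase that acts on oxidised aromatic hydrocarbons, rose from 6.74 ± 1.38 to 10.9 ± 2.26 CPM (0.70, SE 0.183, adjusted p = 0.0468), and FA replicate 6 at 8.655 lay above DE replicate 7 at 8.315. Alas1, the first enzyme of heme synthesis outside red cells, was lower in DE, at 119.6 ± 18.4 CPM against 175.5 ± 23.4 in FA (log2 fold change −0.55, SE 0.132, adjusted p = 0.0356), with FA from 150.3 to 202.7 and DE from 104.2 to 143.3. Por, the reductase that all microsomal P450s need, was at 0.16 (adjusted p = 0.419).

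None of these 3 calls held in every alternative, with Cyb5a called in 13, Ephx1 in 10 and Alas1 in 9 of 19. Their signs held, with log2 fold changes of 0.47 to 0.67 for Cyb5a, 0.61 to 0.84 for Ephx1 and −0.75 to −0.48 for Alas1. Cyb5a and Ephx1 stayed called with each of the other scalings. Cyb5a was not called without FA replicate 2, FA replicate 4 or DE replicate 3 (adjusted p up to 0.0847), Ephx1 only stayed called without FA replicate 6 or DE replicate 7 (up to 0.146), and Alas1 only without DE replicate 5 (up to 0.0875). None was called where the test itself required the 25% difference (adjusted p from 0.210 to 0.310). Alas1 was also lost with upper quartile factors (adjusted p = 0.0503) and library totals (0.0504), and Cyb5a (0.0797) and Ephx1 (0.132) with the prefix as a term. With prefix 11 alone, Alas1 was called (−0.75, adjusted p = 0.0282), and Cyb5a (0.47, adjusted p = 0.121) and Ephx1 (0.64, adjusted p = 0.157) were not. Of 8 enzymes that make receptor ligands from tryptophan, 1 passed the count filter, the kynurenine formamidase Afmid, at 17.6 CPM in FA and 19.5 in DE (log2 fold change 0.15, adjusted p = 0.432). The other 7 averaged at most 0.320 CPM in either group.

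**Figure D5:**
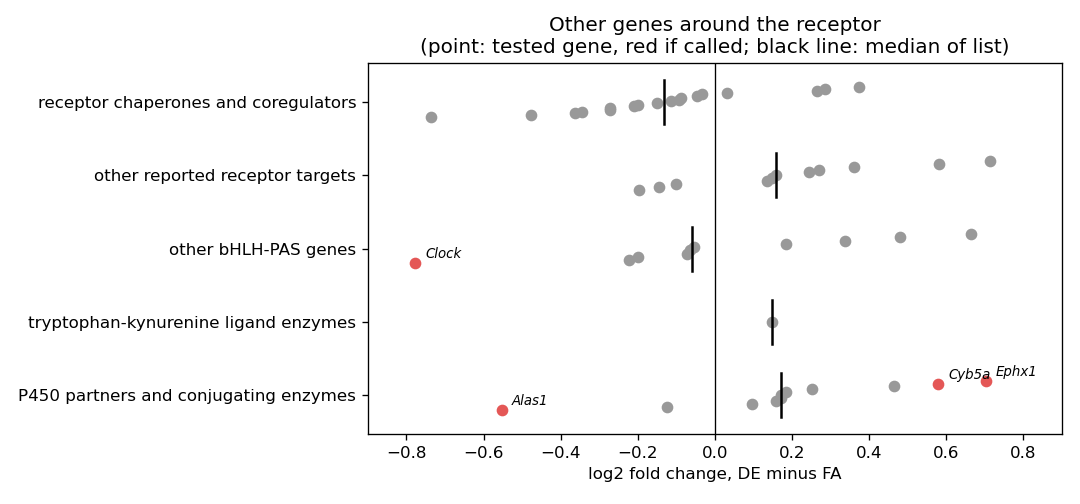
Log2 fold change of DE against FA (horizontal axis) of each tested gene in the 5 lists (rows), with called genes in red and named and a black line at the median of each list. Called genes are Clock and Alas1 below 0 and Cyb5a and Ephx1 above 0, and the list medians lie between −0.13 and 0.17.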

How the data were processed

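NCM RNA from 8 hearts (4 FA, 4 DE) was sequenced as poly-A selected, stranded libraries. The authors aligned reads to mm10 with Tophat, left marked duplicates in place and used featureCounts to count. The deposited table holds these raw counts by Entrez identifier, not normalized. Counting annotation, strand setting and multi-mapped reads are not given in the sources used here, and they can change the counts of overlapping genes. Entrez identifiers were matched to symbols on GRCm38.p6 (25275 of 27179 matched). Within each group, no library was a copy of another (closest of 12 pairs FA replicates 2 and 4, chi-square 5.37 per gene).

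From these counts, genes were kept by filterByExpr at a minimum count of 10 (14966 genes), scaled by TMM and compared by the quasi-likelihood test of edgeR 4.0.16 (R 4.3.3). The model held exposure alone, and p-values were adjusted by Benjamini-Hochberg over every tested gene. Calls needed an adjusted p of 0.05 and a difference of 25%. The code was tested on simulated data. FPKM were computed from the counts, and exact permutation tests were two-sided. The alternatives were DESeq2 1.42.0, the likelihood ratio test, limma-voom (limma 3.58.1), the fold threshold built into the test, other scalings and filters, the name prefix, and each library left out.

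Named genes were all 8 members, the called genes of the 5 pathway lists (or the gene with the smallest p of a list with none), and for each tested member the 3 genes most like it over the libraries. Other genes named were chosen after their values were seen. The members, lists and cell type markers were chosen with earlier results of these data known.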

Additional observations from a re-analysis of the deposited data

Results flagged for a closer look

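Cyp1a2 had 0.0499 CPM (2 counts) in DE replicate 5 and 0 in the other DE libraries, which makes that library stand apart from its group. With the other 3 at 0, any count in 1 library would stand apart in this way, and 2 counts lie below the 3 counts that a count of 0 allows. Cyp1b1 differed between DE libraries of the 2 name prefixes, by −1.65 on the log2 scale in DE prefix 12 against DE prefix 11 (2.46 and 7.58 CPM, adjusted p = 0.0339 by edgeR, 2 libraries against 2). The 2 libraries of prefix 11 were themselves apart, at 10.32 and 4.85 CPM, and the 2 of prefix 12 had 2.467 and 2.444. What the prefix stands for is not given in the labels.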

How the results depend on the processing

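Cyp1a1 was lower and called in all 19 alternatives. The number of genes called over the whole table was 868 (332 lower and 536 higher), and it was 1628 with DESeq2, 1603 with the likelihood ratio test, 448 with the name prefix as a term, 260 with prefix 11 alone, 114 with the fold threshold built into the test and 237 to 1168 with each library left out. With library totals in place of TMM the split was 217 lower and 803 higher. Of the members, 2 were called with DESeq2 and 1 to 2 with each library left out. Of the other pathway genes, 4 were called, against 2 with library totals, 1 with the prefix as a term, 1 with prefix 11 alone, 0 with the fold built in and 0 to 4 with each library left out. Arnt2 changed sign with upper quartile factors (0.017), library totals (0.067), no filter (0.0001), the prefix as a term (0.30), prefix 11 alone (0.29) and without FA replicate 2, 3 or 4 or DE replicate 3 or 5 (all libraries left out in turn, −0.25 to 0.17). Cyp1b1 changed sign with library totals (0.029), the prefix as a term (0.58), prefix 11 alone (0.58) and without DE replicate 3 or 5 (all libraries left out in turn, −0.71 to 0.20). In alternatives chosen after seeing the data, values relative to smooth muscle markers, a sum that is mostly Acta2, changed sign for Arnt (0.24), Arnt2 (0.45), Tiparp (0.13) and Cyp1b1 (0.17), and Ahr changed sign relative to fibroblast (−0.35) and leukocyte markers (−0.054). No paired analysis was possible because the labels pair no FA library with a DE library. Members with few counts, such as Cyp1a2, limit what can be seen at this depth.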

Other observations

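Genes whose log2 CPM followed a member most closely over the 8 libraries are given as a description, with Pearson r and no test. For Ahr these were Erg (0.985), Cd93 (0.985) and Ets1 (0.984), all well known from endothelial cells. For Arnt they were Prkg1 (0.990), Syne1 (0.987) and Etv3 (0.987), and for Arnt2 Smo (0.960), Ap3b1 (0.955) and Mocs1 (0.949). Ahrr was followed by Nipal3 (0.983), Fam53c (0.964) and Nab2 (0.958), and Tiparp by Otud7b (0.995), Zfp641 (0.994) and Cdon (0.994). Cyp1a1 was followed by a gene with no symbol (0.988), Eif4e3 (0.986) and Iba57 (0.983), and Cyp1b1 by Mxd4 (0.978), Tecrl (0.963) and Tmtc1 (0.961). These are the highest of 14966 genes for each member, over libraries that share 2 groups.

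Among the 24 tested genes whose symbol is Cyp followed by a family number, a letter and a number, a set of cytochrome P450 genes chosen after the data were seen that leaves out those named otherwise, 2 were called, Cyp1a1 and Cyp4f16, beside 5.8% of all tested genes, and both were lower in DE. Cyp4f16 had 15.3 CPM in FA and 10.5 in DE (log2 fold change −0.53, adjusted p = 0.0275 by edgeR). The median of the 24 was −0.0036.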
